A study of Homo sapiens with 4 samples.

Results

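H4K20me3 peaks that were present in both growth states of IMR90 cells made up 1446 of the 2621 proliferating-state peaks of more than 1 base on chromosomes 1 to 22 (55.2%), and they met 1278 of the 33077 senescent-state peaks (3.86%). The members were chosen by the overlap of the 2 peak lists. A proliferating-state peak was kept where it shared at least 1 base with a senescent-state peak, and the senescent-state peaks it met were kept with it. Since that overlap selected them, the number of members and the share kept are descriptions with no test. H4K20me3 is the trimethylated form of lysine 20 on histone H4. ChIP-seq, which sequences the DNA that an antibody to the mark pulls down, was run on IMR90, human lung fibroblasts with a diploid genome that stop dividing after many passages. Proliferating cells (PRO) were taken at population doubling 32 and replicative senescent cells (RS) at population doubling 86, with 2 samples in each group (1 for each of 2 H4K20me3 antibodies). The lists used here hold 1 merged set of peaks per group, found with both antibodies, with positions only, so no value below has a replicate error, and no test between PRO and RS was possible. The study states the number of reads of each library, which the lists do not carry and which were not used here. It describes the RS samples as independent experiments, each with its own antibody, so antibody and experiment cannot be told apart. A change in width therefore describes these 2 merged lists.

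H4K20me3 is a mark of silent chromatin. The SUV420H enzymes place it, largely where HP1 proteins have bound chromatin that carries methylated histone H3 lysine 9, and it is best known from the satellite repeats around centromeres, from telomeres and from other tandem repeats. Genes for KRAB zinc finger proteins, a large family of transcription factors that silence transposable elements, carry the heterochromatin machinery on their own gene bodies. The questions here were which sequences held the mark in both states, and whether the marked stretch at each was wider, narrower, joined or broken up in RS.

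The sequences under kept peaks fell into a few kinds, and a short stretch of several is shown because the changes in width divided along them. All are reference sequence (GRCh37, which shares its coordinates with hg19 here), written 5′ to 3′ on the strand given. The first 3 are stretches of the length of the alpha satellite unit of human centromeres, with the core of the CENP-B box in capitals, the site bound by the centromere protein CENP-B. They lie at chr17:22244827-22244997 (plus strand), chr1:121362804-121362974 (minus) and chr2:92295508-92295678 (plus), and no annotated gene lies there.
Alpha-type, chromosome 17: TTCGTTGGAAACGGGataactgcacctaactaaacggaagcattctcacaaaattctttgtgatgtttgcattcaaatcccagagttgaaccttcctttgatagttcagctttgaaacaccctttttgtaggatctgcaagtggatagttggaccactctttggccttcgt
Alpha-type, chromosome 1: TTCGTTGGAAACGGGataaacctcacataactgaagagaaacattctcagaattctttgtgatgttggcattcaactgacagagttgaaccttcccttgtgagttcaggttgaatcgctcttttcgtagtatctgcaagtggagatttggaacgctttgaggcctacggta
Alpha-type, chromosome 2: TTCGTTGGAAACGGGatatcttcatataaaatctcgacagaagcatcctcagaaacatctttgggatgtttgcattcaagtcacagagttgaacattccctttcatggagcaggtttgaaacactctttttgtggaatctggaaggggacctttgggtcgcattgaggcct

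The next 4 stretches of 120 bases come from arrays of a 5-base unit, the pericentromeric satellite type in which GGAAT is repeated, with each GGAAT in capitals. They hold 21, 19, 15 and 12 copies and lie at chr4:49151421-49151540 (minus), chr10:42363401-42363520 (minus), chr21:10804961-10805080 (plus) and chr16:46391021-46391140 (minus), outside annotated genes. Of these arrays, the unit had drifted most in the one on chromosome 16.
Chromosome 4: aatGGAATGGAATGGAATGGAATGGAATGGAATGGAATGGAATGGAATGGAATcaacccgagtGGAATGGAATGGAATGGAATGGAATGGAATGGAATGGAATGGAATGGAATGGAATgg
Chromosome 10: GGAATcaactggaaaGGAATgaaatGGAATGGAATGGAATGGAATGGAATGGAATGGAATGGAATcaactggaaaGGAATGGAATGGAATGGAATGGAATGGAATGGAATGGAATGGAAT
Chromosome 21: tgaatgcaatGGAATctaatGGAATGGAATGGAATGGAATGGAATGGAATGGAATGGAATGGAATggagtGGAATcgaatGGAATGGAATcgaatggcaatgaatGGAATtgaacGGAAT
Chromosome 16: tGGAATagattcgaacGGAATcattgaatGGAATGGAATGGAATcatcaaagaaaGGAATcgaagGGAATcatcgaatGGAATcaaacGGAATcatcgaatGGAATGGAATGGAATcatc

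Longer units are shown as stretches of 110 bases. The first 4 belong to arrays with units close to 2.5 kb, 2 on chromosome 4 and 2 on chromosome 19, and they are set out because those on chromosome 4 lost most of their covered length and those on chromosome 19 kept most of it. The reference stretch is chr4:132671926-132672035 (plus), within the non-coding gene SNHG27. Bases that differ from it are in capitals in the best ungapped match from each other array, chr4:132644555-132644664 (plus, outside annotated genes, 3 differences), chr19:36760859-36760968 (plus, in the non-coding gene LINC00665, 11 differences) and chr19:37761471-37761580 (minus, in the non-coding gene ENSG00000267605, 10 differences).
Chromosome 4, first array: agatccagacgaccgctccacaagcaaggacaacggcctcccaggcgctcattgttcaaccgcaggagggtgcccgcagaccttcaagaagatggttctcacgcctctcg
Chromosome 4, second array: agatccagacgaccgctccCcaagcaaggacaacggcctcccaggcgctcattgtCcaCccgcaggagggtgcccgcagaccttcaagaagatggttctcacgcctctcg
Chromosome 19, first array: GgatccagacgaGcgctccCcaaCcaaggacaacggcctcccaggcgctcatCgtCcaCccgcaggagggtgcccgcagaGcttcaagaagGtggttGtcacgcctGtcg
Chromosome 19, second array: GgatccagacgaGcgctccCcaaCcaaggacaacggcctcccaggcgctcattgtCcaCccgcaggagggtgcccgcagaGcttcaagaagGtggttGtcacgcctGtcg

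The 3.3-kb unit of the D4Z4 array, which carries the DUX4 gene near the end of chromosome 4, was identical over 110 bases at chr4:190986826-190986935 (plus) and chr10:135478367-135478476 (plus), so it is shown once. The first lies in the non-coding gene DBET and the second in the pseudogene DUX4L28. A 1.8-kb unit occurs on chromosome 7 at chr7:63217326-63217435 (plus, outside annotated genes) and chr7:56880233-56880342 (minus, in the non-coding gene ENSG00000279072), with the 3 differing bases of the second in capitals. The last sequence, chr19:37240880-37241065 (minus), is exonic in the zinc finger gene ZNF850. The codons for the linker TGEKPY that joins neighbouring zinc fingers are in capitals. The RS peak over it, of 7001 bases, holds 23 such linkers, whereas the PRO peak of the same locus, of 601 bases, holds none. It was picked as the RS peak with the most linkers among loci with none in PRO.
D4Z4 unit, chromosomes 4 and 10: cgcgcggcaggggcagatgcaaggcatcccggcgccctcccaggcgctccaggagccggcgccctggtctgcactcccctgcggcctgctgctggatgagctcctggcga
Chromosome 7, first array: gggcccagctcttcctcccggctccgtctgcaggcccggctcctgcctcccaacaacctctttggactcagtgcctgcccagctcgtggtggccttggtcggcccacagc
Chromosome 7, second array: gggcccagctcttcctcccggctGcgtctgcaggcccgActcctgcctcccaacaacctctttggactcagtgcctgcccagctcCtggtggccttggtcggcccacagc
ZNF850 finger exon: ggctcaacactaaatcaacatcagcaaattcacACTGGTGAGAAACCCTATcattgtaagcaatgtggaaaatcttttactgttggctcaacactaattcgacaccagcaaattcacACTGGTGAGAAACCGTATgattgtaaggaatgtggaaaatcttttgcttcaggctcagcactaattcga

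Kept peaks were wider than the rest in both lists. The median width was 801 bases for the 1446 kept PRO peaks (quartiles 401 and 1401) and 601 bases for the 1175 PRO peaks with no RS peak, and all 34 PRO peaks of at least 10 kb were kept. In RS, the 1278 kept peaks had a median of 1401 bases (quartiles 801 and 3001) and the 31799 peaks with no PRO peak had a median of 801. The widest kept peaks measured 42401 bases in PRO and 65401 in RS, whereas the widest PRO peak that was not kept measured 4601. Kept peaks held 2457846 bases, or 76.7% of all PRO bases, and their RS partners held 3659078, or 10.1% of all RS bases. A wide peak has more bases that can meet a peak of the other list, so these widths partly follow from the rule.

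The overlaps were deep. The 1538 overlapping pairs shared a median of 801 bases, 1125 kept PRO peaks (77.8%) lay wholly inside RS peaks and 412 kept RS peaks (32.2%) lay wholly inside PRO peaks. At the threshold itself, 17 pairs shared just 1 base, where the last window of a peak met the first of another, while 13 PRO peaks that were not kept had an RS peak 199 bases away and 121 had one within 1000 bases. A total of 2201538 bases was shared, which was 89.6% of the kept PRO bases and 60.2% of the kept RS bases.

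To compare widths, peaks of both lists that touched one another were taken as 1 locus, which gave 1186 kept loci. RS peaks covered 1.49 times as many bases as PRO peaks over them. Choosing peaks by overlap favours wide ones, so this ratio can follow in part from the rule. The study reports that the peaks of its antibodies overlapped far more in RS than in PRO. Each list keeps only the parts found with both antibodies, so a lower overlap can leave PRO peaks narrower or more broken. How much of this ratio, and of the growth and edge shifts below, zinc finger loci included, comes from that was not tested. A locus was said to have grown or shrunk when its covered bases changed by over 200 bases, the width of the windows in which peaks were called. By this measure 658 loci grew (55.5%), 133 shrank (11.2%) and 395 stayed within 1 window (33.3%), of which 197 had equal lengths. These values rest on the overlap asked for and on the repeats: with at least 50% of both peaks shared 28.6% of the loci grew, at a ratio of 1.04, and among peaks with under 10% repeated windows 65.0% grew, at a ratio of 2.35. The loci with more bases in RS gained 1397978 bases and those with fewer lost 196746. The plot of covered bases by locus shows that small loci lay mostly above the line of equal length and most of the widest lay close to it.

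**Figure D1:**
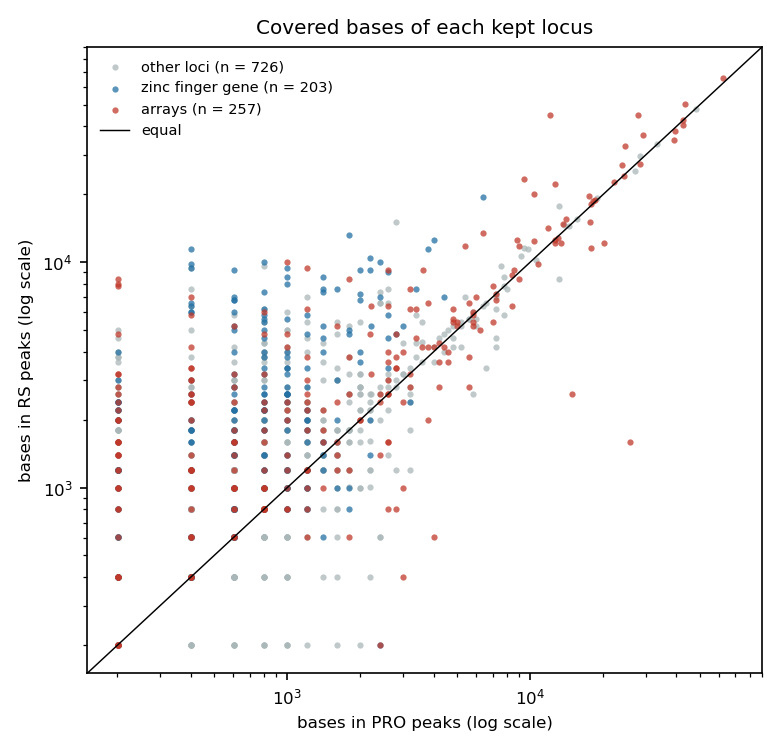
Bases covered by RS peaks against bases covered by PRO peaks for each of the 1186 kept loci, both on log scales, with arrays (257 loci), zinc finger genes (203) and the other loci (726) in separate colours and a line at equal length. Points above the line are the loci with more bases in RS, and the lowest point among the wide arrays is the chromosome 4 locus that went from 25801 to 1601 bases.

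Growth differed with the size of the locus in PRO. The 665 loci with under 1000 PRO bases covered 3.13 times as many bases in RS, the 425 loci from 1000 to under 5000 covered 1.53 times as many, and the 96 larger loci covered 1.06 times as many. The loci were sorted by PRO bases, which also divide each ratio, so part of this fall can follow from the sorting alone. Of the large loci, 41.7% grew and 35.4% shrank, whereas 1.65% of the smallest shrank. A locus of 1 or 2 windows cannot shrink by over 1 window and still be kept, so the small share that shrank is set in part by the rule. Only 22 of the 96 large loci (22.9%) stayed within 1 window, so their ratio near 1 is a total in which gains and losses offset each other. The 45 loci with at least 10 kb in PRO held 40.7% of the PRO bases.

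Most loci had a single peak in each list. There were 1024 such loci, with a median of 601 bases in PRO and 1201 in RS. Of their 2048 edges, 761 (37.2%) lay at the same base in both lists, 1214 (59.3%) lay within 1 window, 1027 lay farther out in RS and 260 farther in. The peaks had the same start and end at 175 loci (17.1%), RS extended on both sides at 310 (30.3%) and on 1 side at 314, RS lay inside PRO at 132, and the peak was longer on 1 side and shorter on the other at 93. The shifts ran from -68 windows (inward) to 54 (outward), and 67 edges moved out by at least 15.

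**Figure D2:**
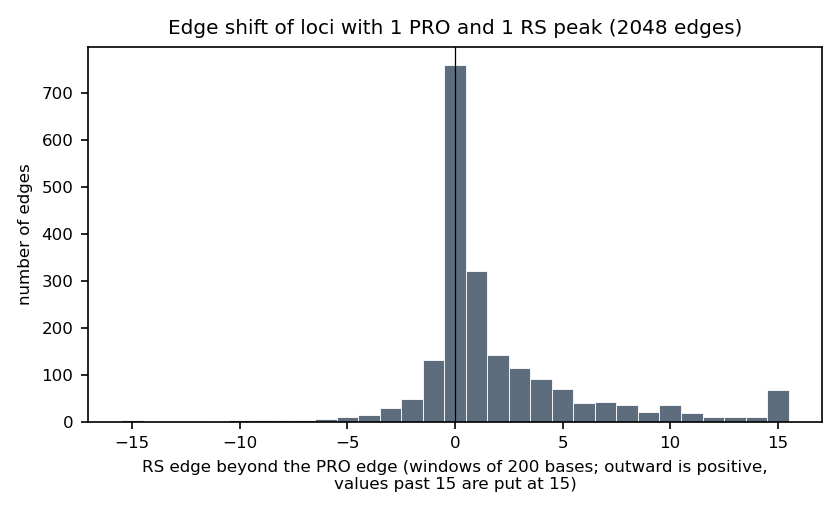
Number of edges by the distance of the RS edge beyond the PRO edge, in windows of 200 bases with outward shifts positive, for the 1024 loci with 1 peak in each list. The tallest bar is at 0 (761 edges), and the right side holds 1027 edges against 260 on the left, with shifts of 15 windows or more gathered in the last bar.

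At 103 loci (8.68%) several PRO peaks were joined under 1 RS peak. These held 334 PRO peaks, as many as 19 at a single locus, and went from 597334 to 957303 bases. Gaps between the PRO peaks, 222569 bases in all, made up 61.8% of that gain, so most of it lay between listed PRO peaks rather than beyond them. Whether the gaps reflect the lower overlap of the antibodies in PRO was not tested. At 43 loci (3.63%) a single PRO peak was split into several RS peaks, 107 in all and at most 6 at a locus, and these went from 419643 to 360507 bases, with 32 of 43 shrinking. In the median, 80% of the 75-base windows of a split locus occurred more than once in the genome, against 6.67% over all kept loci and 79.8% over the 96 loci with at least 5000 PRO bases. Split loci were themselves wide, with a median of 6601 PRO bases. A further 16 loci held several peaks in both lists.

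The loci were divided by sequence and gene, with thresholds chosen after the data were seen, and no test was run between the classes. Alpha-length arrays (94 loci) matched themselves at shifts near the length of the alpha satellite unit. At those with at least 5000 PRO bases the unit found was longer, from 340 to 3395 bases. The class went from 314779 to 502494 bases. Arrays of a close 5-base unit (31 loci) went from 197071 to 293031, and zinc finger genes in none of the array classes (203 loci) from 203831 to 668005. The 9 loci of TTAGGG repeats went the other way, from 22209 to 10410 bases. Other tandem arrays (108 loci) barely moved in total, from 515928 to 527136, or from 475326 to 522933 without 2 loci of chromosome 4 that lost most of their length. The 166 loci at other coding genes covered 1.36 times as many bases in RS, and the 560 loci with neither an array nor a coding gene 1.43 times. The 257 loci of all array classes held 48.3% of the bases covered in PRO and 40.6% of those covered in RS.

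**Figure D3:**
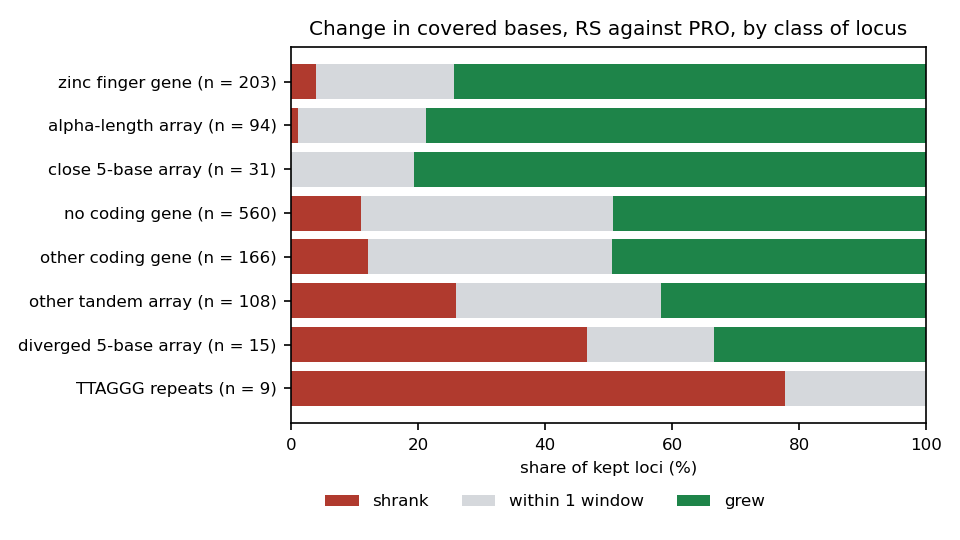
Share of the kept loci of each class (percent) that shrank, stayed within 1 window or grew in RS, with the number of loci beside each class. Growth was the most common outcome in 6 of the 8 classes, from 41.7% of other tandem arrays to 80.6% of close 5-base arrays, and shrinking in the other two, diverged 5-base arrays (7 of 15) and TTAGGG repeats (7 of 9).

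The alpha-length arrays grew at 74 loci, shrank at 1 and stayed within 1 window at 19, and 24 of them were joined in RS while none was split. They lay on 20 chromosomes, 80.9% of them within 2 Mb of an assembly gap of at least 1 Mb, where the centromeres lie, and their PRO peaks had a median GC content of 39.0%. On chromosome 1, 14 such loci beside the centromere held 52 PRO peaks and 14 RS peaks and went from 67252 to 114814 bases. The locus at chr1:121360801-121405801 had 19 PRO peaks of 27819 bases in all and 1 RS peak of 45001. On chromosome 4, 9 PRO peaks of 9409 bases became 1 RS peak of 23401 at chr4:52660001-52683401, and on chromosome 5, 12 peaks of 29212 bases became 1 of 36601. Some wide arrays hardly changed, as on chromosome 17, where 18201 bases became 18601. The 52 loci with a CENP-B core covered 1.46 times as many bases in RS and the 42 without one 2.19 times. The first held 254321 bases in PRO and the second 60458. Since the ratio fell with PRO size over all kept loci, nothing about the core is read from this difference.

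The close 5-base arrays held the widest kept peak and the largest gain. None of the 31 shrank and 11 were joined, 27 (87.1%) lay within 2 Mb of a large gap, and 30 held 2 GGAAT units in a row. At chr4:49093201-49158601, 8 PRO peaks of 62408 bases lay under 1 RS peak of 65401. On chromosome 10, at chr10:42354801-42397401, a PRO peak of 42401 bases faced an RS peak of 42601. On chromosome 21, at chr21:10772001-10817001, 14 PRO peaks of 12014 bases were joined into an RS peak of 45001, a gain of 32987 bases. Without that locus the other 30 covered 1.34 times as many bases in RS, against 1.49 with it.

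The 15 arrays in which the 5-base unit had diverged changed in both directions. Among these, the 7 loci that still held GGAAT pairs went from 72231 to 104207 bases, with 5 grown and none shrunk, and the 8 that held none went from 65408 to 49815, with 7 shrunk and none grown. This division was made after the values were seen. The widest of the first group was the array on chromosome 16, where 6 PRO peaks of 43406 bases became 1 RS peak of 50201 at chr16:46385801-46436001, and 2 more lay on chromosome 2, where 12611 bases became 22201 and 10410 became 20001. In the second group, 1 PRO peak of 20201 bases at chr2:87638401-87658601 became 5 RS peaks of 12205.

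All 9 loci with TTAGGG repeats lay within 100 kb of the end of the assembled sequence of a chromosome. The widest, at the start of chromosome 12, went from 4001 to 601 bases, that at the end of chromosome 21 from 3001 to 401, that at the end of chromosome 1 from 2801 to 801, and that near the end of chromosome 2 from 2601 to 801. The end of chromosome 10 went from 2601 to 1601 bases, the start of chromosome 4 from 3001 to 2402 in 2 peaks, and the end of chromosome 4 from 1601 to 1201. The start of chromosome 5 kept 2001 bases and the end of chromosome 12 kept 601. The mark was thus narrower at 7 of the 9 and wider at none. Among all 56 kept loci within 200 kb of a chromosome end, 24 grew and 16 shrank, the TTAGGG loci included.

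The 2.5-kb arrays gave the sharpest contrast between copies of 1 family. The 2 on chromosome 19 kept their peaks, from 42401 to 40602 bases at chr19:36759001-36801401 and from 39001 to 34804 at chr19:37757201-37796801, or 92.6% of their PRO bases together. The 2 on chromosome 4 lost nearly all of theirs, from 25801 to 1601 bases at chr4:132660601-132686401 and from 14801 to 2602 at chr4:132644201-132659001, or 10.4% together, and these were the largest losses of all kept loci. The units measured 2483 and 2492 bases on chromosome 4 and 2528 and 2527 on chromosome 19. In the stretches shown above, the chromosome 4 arrays were 97.3% identical to each other and 90.0% and 90.9% identical to those of chromosome 19. Why the chromosomes differed was not tested.

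**Figure D4:**
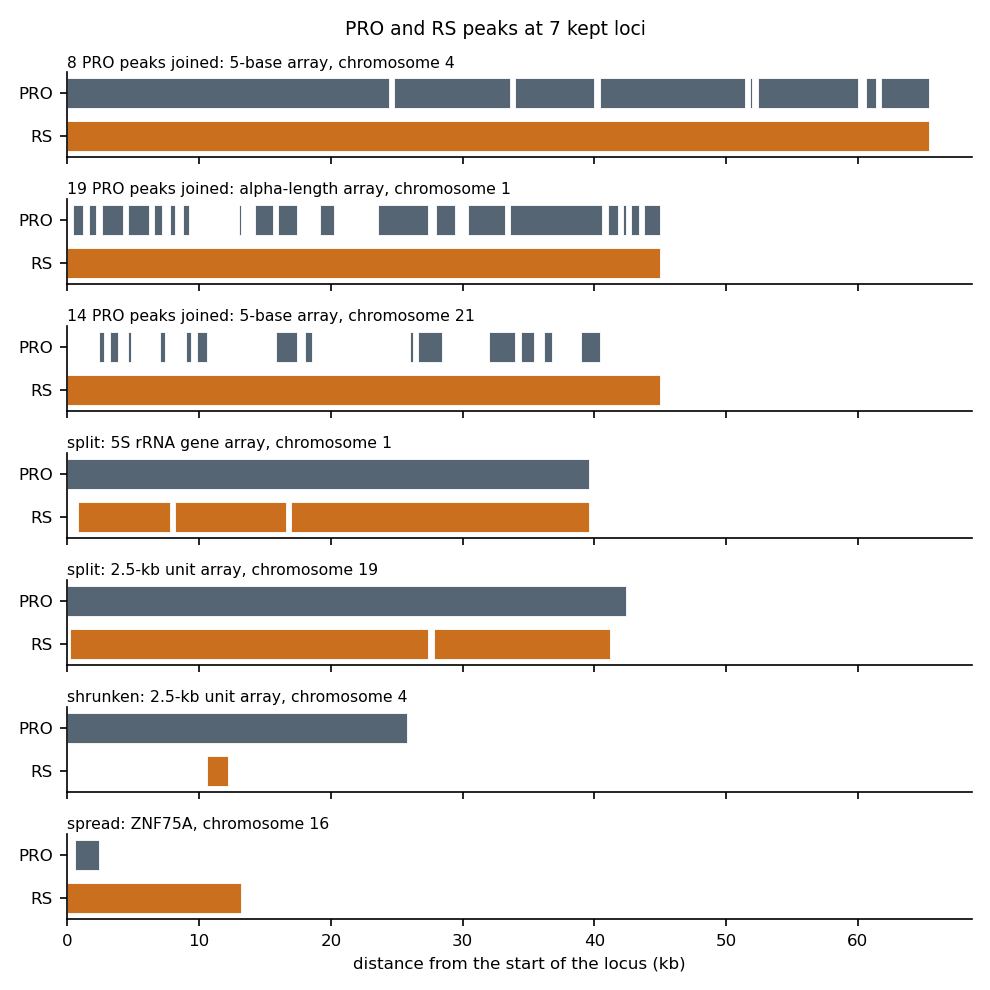
Peaks of PRO and RS at 7 kept loci, drawn to 1 scale as distance from the start of the locus in kb. In the first 3, 8, 19 and 14 PRO peaks lie under 1 RS peak. The 5S rRNA gene array and a 2.5-kb array of chromosome 19 are split in RS. A 2.5-kb array of chromosome 4 is reduced to 1601 bases, and the peak at ZNF75A goes from 1801 to 13201.

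Several arrays of gene copies had similar covered lengths in both lists. The 5S ribosomal RNA genes, which supply an RNA of the large ribosomal subunit, lie in an array with a unit of 2226 bases at chr1:228743001-228782601. A PRO peak of 39601 bases and 3 RS peaks of 38003 covered it, and all 17 annotated genes lay in peaks of both lists. The D4Z4 array of chromosome 4, which holds DUX4, a gene of the early embryo whose misexpression in muscle causes facioscapulohumeral dystrophy, went from 28201 to 27203 bases in 3 RS peaks, and the sister array on chromosome 10 from 24401 to 24202. The 9 loci of the USP17L deubiquitinase genes on chromosome 4 went from 94618 to 96017 bases, and the 7 loci of REXO1L on chromosome 8 from 56812 to 57809. The 9 FAM90A loci of chromosome 8 went from 86814 to 77823, with 2 grown, 4 shrunk and 3 within 1 window. A single locus held 48004 of these PRO bases and 47805 in RS, while others fell further, as from 7201 to 4203 and from 6601 to 3402. The 1.8-kb arrays of chromosome 7 shrank more, from 17801 to 11606 bases in 6 RS peaks and from 17601 to 15002 in 2.

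These arrays share sequence. Of the 96 loci with at least 5000 PRO bases, 65 shared at least 5% of their 31-base words with another of the 96. A read from a stretch that is identical in several copies cannot be assigned to 1 of them, and how many reads this touched was not measured. Of the 550 loci with at least 10% repeated windows 44.2% grew, at a ratio of 1.19, and of the 636 others 65.3% grew, at a ratio of 2.29. The part played by read placement was not tested.

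**Figure D5:**
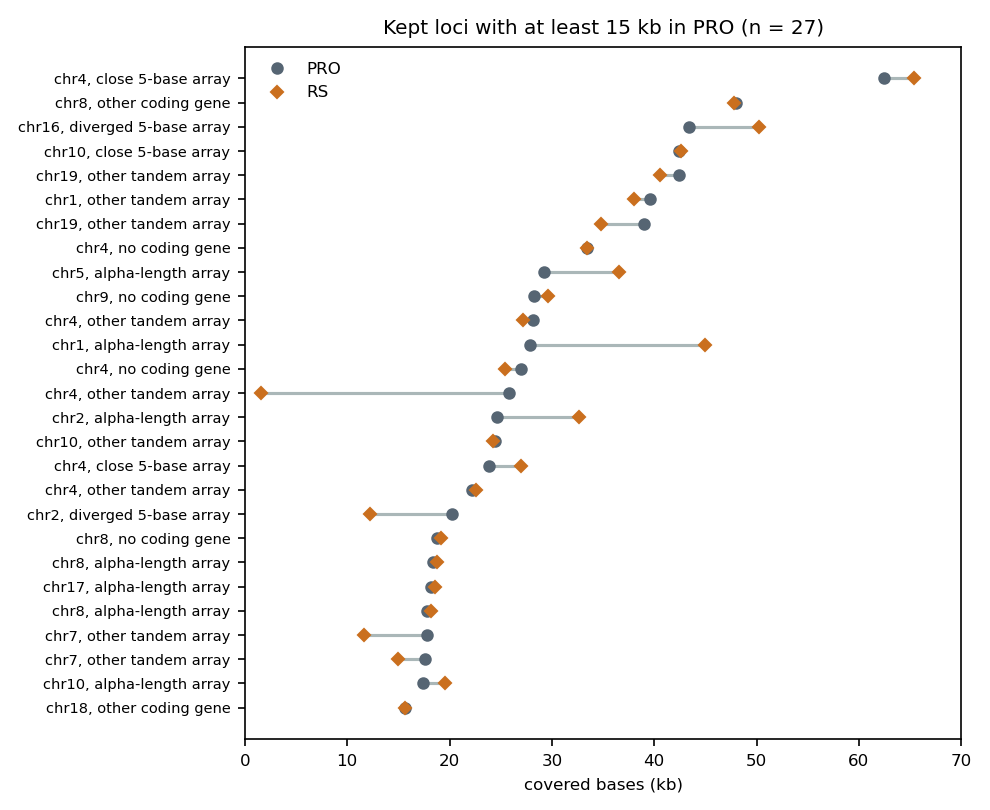
Covered bases in PRO and RS (kb) for the 27 kept loci with at least 15 kb in PRO, ordered by PRO bases and named by chromosome and class. RS covered more bases at 14 of them, fewer at 11 and as many at 2, and the long line to the left is the chromosome 4 array that went from 25801 to 1601 bases.

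Zinc finger genes held many of the kept peaks. Of 553 measured, 143 (25.9%) held bases shared by both lists, against 367 of 19229 coding genes of all kinds (1.91%). Of the zinc finger genes with any PRO peak, 85.6% held shared bases, against 48.3% of all coding genes with a PRO peak. The 203 zinc finger loci lay at 131 genes and went from a median of 801 bases in PRO to 2201 in RS. Of these, 151 grew, 8 shrank and 44 stayed within 1 window. The 138 on chromosome 19, where most of the family is clustered, covered 3.17 times as many bases in RS, and the 65 on other chromosomes 3.56 times.

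The wider RS peaks reached farther along the gene in both directions. The RS peak extended a median of 400 bases upstream and 400 downstream of the PRO peak, farther downstream at 94 loci and farther upstream at 81. PRO peak centres lay at a median of 52.4% of the way along the gene, and 39 of the 203 loci (19.2%) had a PRO peak within 1 kb of a gene start. Finger linkers, which mark the last coding exon, were found in the PRO peaks of 9 loci (4.43%). They were found in the RS peaks of 32 loci (15.8%), and at 23 of them in RS alone. The RS peaks of the 203 loci also covered more bases, 668005 against 203831 in PRO, and these counts were not adjusted for length. Exons made up 12.1% of the zinc finger gene bases under kept PRO peaks and 10.9% of those under kept RS peaks, so most of the marked length was intronic in both.

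At single genes the change was large. At ZKSCAN5, on chromosome 7, a PRO peak of 401 bases lay under an RS peak of 11401, and at ZFP90, on chromosome 16, 2 PRO peaks of 402 bases in all lay under one of 9801. At ZNF75A the peak went from 1801 to 13201 bases, at ZNF416 and ZIK1, which lie under the same peak, from 801 to 10001, at ZNF69 from 401 to 9401 and at ZNF790 from 601 to 9201. At ZNF717, on chromosome 3, 5 PRO peaks of 6405 bases were joined into 1 of 19401. Counted over whole genes, ZNF274 (chr19:58694396-58724928), whose protein helps to place repressive marks on other zinc finger genes, had 25.6% of its length under PRO peaks and 93.5% under RS peaks. The shares were 19.3% and 68.4% for ZNF544, 23.8% and 77.6% for ZNF329, 15.8% and 71.7% for ZNF135, 11.6% and 66.6% for ZNF506, and 6.17% and 75.5% for ZNF850. Whole-gene shares include RS peaks that met no PRO peak.

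The 8 zinc finger loci that shrank were at ZNF263 (3202 to 2401 bases), ZNF93 (1201 to 801), ZNF486 (2401 to a single window), ZNF568 (1801 to 801), ZNF610 (2201 to 1401), ZNF256 (1401 to 601) and 2 places in ZNF418 (1601 to 1001 and 1801 to 1001). Of the 39 loci near a gene start 5 shrank, and of the 164 others 3 did. ZNF486 had the deepest loss.

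Beyond zinc finger genes, the coding gene with the most shared bases was KATNAL2, a gene for a katanin-like microtubule-severing protein. Its 15601 shared bases were a single peak, equal in both lists, over the tandem ELOA3 copies that lie within it on chromosome 18. LPA, which encodes apolipoprotein(a) and is built of repeated kringle exons, held 15216 shared bases in 7 loci. All 7 grew, from 15 peaks of 16215 bases to 8 peaks of 26608. Of their windows, 97.2% occurred more than once in the genome, with copies inside LPA itself counted. The clustered protocadherin gamma genes, cell adhesion genes that share their last exons, had 8 loci that went from 8808 to 10008 bases, with 2 grown, 1 shrunk and 5 within 1 window. Because the gene models are nested, PCDHGA1 and PCDHGA2 share the same 7408 bases. At PCDHB11 the peak went from 801 to 4001 bases. ANKRD30BL, of a gene family duplicated in primates, held 5343 shared bases.

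Other gene lists were read against the 1.91% of all coding genes that held shared bases. Shared bases lay in 33 of 61 macrosatellite genes (54.1%), such as REXO1L1 and FAM90A24P, and in 14 of 53 clustered protocadherins (26.4%), whose nested gene models count the same peaks many times. They lay in 7 of 228 primate-duplicated genes (3.07%), in 2 of 42 imprinted genes (4.76%, RB1 and ZNF331) and in 1 of 46 germline genes (2.17%, TEX14). These counts are too small to set the 3 lists apart from all coding genes. The share was lower in olfactory receptors, at 2 of 414 (0.483%, OR4N2 and OR4Q3), with no test run. Only 3 of these 414 genes held any PRO peak, and 2 of those 3 held shared bases. None of 94 keratin-associated, 88 ribosomal protein, 42 collagen or 38 kinesin genes held any, but lists of these sizes would hold few at a share of 1.91%. The lists were chosen with earlier results of these data known.

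The kept peaks were set beside the peaks found in 1 state. Whole-peak tandem arrays, with at least 80% identity at a single shift, made up 14.5% of kept PRO peaks, 2.98% of PRO peaks with no RS peak, 6.96% of kept RS peaks and 1.31% of RS peaks with no PRO peak. CENP-B cores were found in 7.19% of kept PRO peaks and 0.170% of the others, against 4.04% of all PRO peaks, and GGAAT pairs in 6.57% and 0.511%, against 3.85% of all. The core was searched as TTCG, 4 bases of any kind, A, 2 bases of any kind and CGGG on both strands, and GGAAT pairs as GGAATGGAAT. Gene starts lay the other way, within 1 kb of 9.13% of kept PRO peaks and 14.5% of those that were not kept, and coding genes lay under 31.5% and 37.7%. In RS, gene starts lay within 1 kb of 11.3% of kept peaks and 1.59% of the others. Kept peaks were wider, and no share here was adjusted for width.

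The study also compared the states by read counts with DiffBind, which gave a list of regions that differed, without direction. Of the 1278 kept RS peaks 167 (13.1%) lay over such a region, against 45.0% of all RS peaks, and of the 1446 kept PRO peaks 217 (15.01%), against 11.8% of all PRO peaks. That list rests on the same contrast as the rule, so nothing is read from these shares. Within the kept loci, a region was found at 155 of the 658 that grew, at 12 of the 395 within 1 window and at none of the 133 that shrank. Growth and the list come from the same libraries, so this split has the same limit. Zinc finger loci held 96 of these 167 loci, or 47.3% of the 203 zinc finger loci, against 14.1% of all kept loci and 12 of the 257 array loci. No alpha-length array had one.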

How the data were processed

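H4K20me3 ChIP-seq was analysed in 4 samples of IMR90 cells, 2 of PRO (population doubling 32) and 2 of RS (population doubling 86), each group with 1 sample per antibody. Per the labels' processing notes, the authors used CASAVA 1.8.2, Trim Galore 0.3.0, Bowtie2 2.1.0 on hg19, Picard 1.98, SICER 1.1, DiffBind 1.8.3 and DESeq. The authors ran SICER on 200-base windows against a total histone H4 ChIP and kept, for each group, the parts of domains found with both antibodies. The deposited lists (2836 PRO and 35535 RS peaks, and 18711 DiffBind regions) hold positions only, with no count, score or direction, so a domain seen with 1 antibody is missing. The study states reads per library, which were not used here. The authors' text names 2 count models for DiffBind, and the list holds fewer regions than the study describes.

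Peaks of 1 base and those outside chromosomes 1 to 22 were left out. Overlap was counted from 1 base, and loci were connected groups of overlapping peaks. Gene models were those of GENCODE release 44 on GRCh37, and no repeat annotation was used. The sequences of some kept repeats are not reported here. Arrays were called from the reference sequence: TTAGGG repeats had at least 10 pairs of the unit, close and diverged 5-base arrays had a median identity of at least 60% or from 45% to under 60% at a shift of 5 bases, alpha-length arrays had at least 50% at shifts of 168 to 174 bases and a unit of at least 150 bases with no zinc finger gene, and other tandem arrays had at least 50% of their 200-base windows at 80% identity or more. A window was repeated where its 75 bases occurred more than once in the genome. The named genes were the 25 coding genes with the most shared bases, up to 4 from each list, and those at the 10 widest loci and the 10 with the largest gains and losses, of which the report prints a part. Members and lists were chosen with earlier results of these data known, and the class limits after the data were seen. No test was run, since each group has 1 list. The scripts (Python 3.11.15, numpy 2.4.6, pandas 2.3.3, numba 0.67.0, matplotlib 3.10.9) were tested on simulated intervals and arrays. Alternatives changed the overlap, joined nearby peaks, kept peaks of 1 base, left out repeated peaks or chromosome 19, and changed the limits for growth and arrays.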

Additional observations from a re-analysis of the deposited data

How the results depend on the processing

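The values are given in this order: kept PRO peaks, their share of PRO peaks, the RS to PRO ratio of covered bases, and the percentages of loci grown, split and joined, of kept RS peaks over a DiffBind region, and of kept PRO peaks over a zinc finger gene and in a whole-peak array. With at least 50% of both peaks shared they were 651, 24.8%, 1.04, 28.6%, 0%, 0%, 3.38%, 10.8% and 7.99%, where the lack of split and joined loci follows from the construction. With under 10% repeated windows they were 678, 50.7%, 2.35, 65.0%, 0.817%, 6.37%, 20.0%, 26.99% and 6.05%. With peaks joined across gaps of up to 1000 bases, the share kept was 51.2%, the ratio 2.08, and the percentages grown 61.9%, split 1.41%, over a DiffBind region 18.8%, over a zinc finger gene 18.5% and in an array 9.64%. Without chromosome 19, the share kept was 52.5%, the percentage grown 51.2%, over a DiffBind region 7.90%, over a zinc finger gene 6.58% and in an array 16.8%. Growth by over 20% of the PRO length gave 59.8% grown, 90% identity gave 8.16% in an array, and calling arrays by 200-base windows, an alternative chosen after seeing the data, gave 26.6%. The cause of these shifts was not tested. An overlap of at least 1 window and keeping peaks of 1 base moved none of the 9 values beyond its margin. That margin was a set factor for the count and the ratio. For the shares it was a binomial interval that takes peaks or loci as independent, so it is not a replicate error. The RS to PRO ratio stayed above 1 in every alternative run and was lowest, at 1.04, with at least 50% of both peaks shared. Each run chose peaks by overlap, and the RS list held 36061077 bases against 3203221 in PRO. A ratio above 1 can therefore follow in part from the rule. Leaving out each antibody in turn was not run, because the lists hold no values per sample. No paired analysis was possible because the lists carry no value for a single antibody. The lists carry no read counts, and what the depth of the libraries, which the study states, limits was not measured here.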
